A study of Mus musculus with 31 samples.

Results

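Levels of 9 macrophage genes were followed in Ly6C-high monocytes, in 9 RNA-seq libraries. Mice without a tumor gave 3 libraries from blood (healthy blood), and mice carrying Lewis lung carcinoma gave 3 from blood (LLC blood) and 3 from the tumors (LLC tumor). The genes were chosen by symbol for their known roles, with earlier results of these data known. They were Adgre1, Cd68 and Ms4a7 of mature macrophages and Mrc1, Cd163 and Folr2 of resident-type macrophages. The others were the transcription factor gene Maf, and Mertk and Axl, receptors for dying cells. All were followed by symbol. They are 9 of 24411 entries in the deposited count table, and all 9 were among the 12337 genes that passed the filter on low counts. Folr2 passed it only through the tumor libraries, where it is high. All groups came from C57BL/6J mice and were sorted as CD11b+, Ly6G-, Ly6C-high and MHC-II-. Lewis lung carcinoma (LLC) is a transplantable mouse lung tumor cell line, grown here under the skin, and the healthy mice carried no tumor. The series also holds 22 chromatin profiles of blood monocytes among its 31 samples, which are not used here. The labels used here give no age, and they do not say whether the RNA libraries came from separate mice. P-values therefore measure the spread between these samples, which may be technical.

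Ly6C-high monocytes are the classical, short-lived monocytes that leave the blood for inflamed tissue and tumors. There they can turn into macrophages, losing Ly6C and gaining lysosomal, endocytic and scavenger proteins. Macrophages that live long in tissues carry a further set of receptors for uptake, such as CD206, CD163 and folate receptor beta, and depend on transcription factors of the MAF family. The question asked of the 9 genes was how far monocytes in the tumor had moved toward macrophages. The gate bears on it: cells that had already lost Ly6C or gained MHC class II were sorted away. No library of macrophages is among the samples, so levels are compared between the 3 groups and a distance to macrophages was not measured.

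The members were found in the count table by symbol, and the deposited CPM table pairs them with Ensembl identifiers. On the GRCm38 assembly of RefSeq, Adgre1 (ENSMUSG00000004730) spans chr17:57358581-57483529, Cd68 (ENSMUSG00000018774) chr11:69664213-69666170 and Ms4a7 (ENSMUSG00000024672) chr19:11321039-11336146. Mrc1 (ENSMUSG00000026712) spans chr2:14229414-14332023, Cd163 (ENSMUSG00000008845) chr6:124304636-124330529 and Folr2 (ENSMUSG00000032725) chr7:101839988-101857190. Maf (ENSMUSG00000055435) spans chr8:115703253-115706894, Mertk (ENSMUSG00000014361) chr2:128698915-128803162 and Axl (ENSMUSG00000002602) chr7:25756500-25788924. Counts of 8 members were whole numbers in all 9 libraries, and those of Axl were whole to within 0.001. Practically no counts were therefore split in fractions with other genes. Whether reads matching several genes were given whole to a gene or left out cannot be told from this.

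RefSeq promoter windows, the 250 bases before an annotated start site on GRCm38.p6, were matched for 7 of the 9 members, with 2 windows each for Folr2 and Ms4a7 and 1 for each of the others. Those of Mrc1 and Folr2, the members that rose furthest from LLC blood to tumor, and of Cd68 and Axl, which rose less, are printed here 5′ to 3′ so that they can be read side by side. Capitals mark each match, on either strand, to the core of PU.1 sites (GAGGAA), to AP-1 sites (TGANTCA) or to the MAF core (TGCTGA). The windows are Mrc1 at chr2:14229164-14229413 on the plus strand, Folr2 at chr7:101857191-101857440 (the outer start) and chr7:101845332-101845581 (the inner start), Cd68 at chr11:69666171-69666420 and Axl at chr7:25788734-25788983, all but Mrc1 on the minus strand.
Mrc1: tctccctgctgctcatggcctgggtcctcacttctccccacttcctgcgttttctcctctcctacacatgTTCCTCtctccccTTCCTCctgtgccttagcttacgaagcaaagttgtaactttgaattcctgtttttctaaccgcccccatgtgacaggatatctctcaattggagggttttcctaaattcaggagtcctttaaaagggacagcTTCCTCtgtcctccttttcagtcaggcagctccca
Folr2, outer start: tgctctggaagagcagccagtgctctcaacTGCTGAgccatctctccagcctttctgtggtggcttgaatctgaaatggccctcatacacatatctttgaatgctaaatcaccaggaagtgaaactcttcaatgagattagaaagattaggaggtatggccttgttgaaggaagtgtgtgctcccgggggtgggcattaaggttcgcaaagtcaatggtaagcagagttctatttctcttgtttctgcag
Folr2, inner start: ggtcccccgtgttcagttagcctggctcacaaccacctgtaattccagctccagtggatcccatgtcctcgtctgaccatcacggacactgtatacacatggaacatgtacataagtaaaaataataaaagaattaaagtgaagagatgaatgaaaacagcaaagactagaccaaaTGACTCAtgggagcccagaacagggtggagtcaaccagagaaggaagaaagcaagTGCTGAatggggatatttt
Cd68: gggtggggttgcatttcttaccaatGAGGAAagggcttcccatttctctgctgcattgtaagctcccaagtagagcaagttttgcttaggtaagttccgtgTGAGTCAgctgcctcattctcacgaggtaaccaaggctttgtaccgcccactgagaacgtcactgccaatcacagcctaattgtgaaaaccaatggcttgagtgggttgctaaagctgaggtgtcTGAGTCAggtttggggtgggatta
Axl: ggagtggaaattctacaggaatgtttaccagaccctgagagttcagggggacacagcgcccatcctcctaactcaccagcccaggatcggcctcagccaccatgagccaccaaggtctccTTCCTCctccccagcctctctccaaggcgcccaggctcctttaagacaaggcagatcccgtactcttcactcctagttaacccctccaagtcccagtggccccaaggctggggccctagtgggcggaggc
The Mrc1 window held 3 matches to the PU.1 core, at 180, 167 and 35 bases before the start site. The outer Folr2 window held 1 MAF core at 220 bases before its start, and the inner one held 1 AP-1 match at 74 bases and 1 MAF core at 19 bases before its own. Cd68 held 1 PU.1 core and 2 AP-1 matches, and Axl held 1 PU.1 core. No marked matches overlap in these windows. Of the 9 member windows, 3 held a PU.1 core (Mrc1, Cd68, Axl), 3 an AP-1 match (Cd68, 1 each of Folr2 and Ms4a7) and 2 a MAF core (both of Folr2). The shares over 32851 RefSeq mouse promoter windows were 23.3% for the PU.1 core, 6.75% for AP-1 and 16.1% for the MAF core. The other motifs searched were a C/EBP site (TTGCNNAA), in 1 member window (Cd68) and 9.56% of all, the hypoxia response core (ACGTG), in 0 and 16.6%, and the TATA box (TATAAA), in 0 and 12.4%. Matches are descriptions of letters, not of bound sites.

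Expression is given as CPM, a count scaled to the total of its library, with the SD over 3 libraries. Total counts were 13992712 to 16310639 in healthy blood, 10457492 to 20706412 in LLC blood and 11075725 to 11572942 in LLC tumor, so that 3 counts, taken as the detection floor for counting error, correspond to 0.145 to 0.287 CPM. Some libraries stood apart. LLC tumor 1 differed from the other tumor libraries with a chi-square per degree of freedom of 47.6 and 37.2, against 4.67 to 14.3 for every other pair within a group. Summed fibroblast markers were 433.8 CPM in LLC blood 1 and 3.74 and 4.59 CPM in LLC blood 2 and 3. Summed B cell markers were 204.4 CPM in healthy blood 2 and 23.4 and 31.9 CPM in the other healthy blood libraries. Defining genes of the sorted cells, chosen here for their role, were present in every library but lower in the tumor. Ccr2, the chemokine receptor of classical monocytes, was at 1455 to 2093 CPM in healthy blood, 2030 to 2392 CPM in LLC blood and 1018 to 1309 CPM in LLC tumor. Ly6c2, a gene of the Ly6C antigen used in the gate, was at 1571 to 1728 CPM, 1099 to 1237 CPM and 272.4 to 472.5 CPM in these groups, with reads shared with other genes. It fell in tumor by 1.45 ± 0.24 on the log2 scale against LLC blood (adjusted p = 0.000675) and by 2.01 ± 0.25 against healthy blood (adjusted p = 8.57e-05). In the count table the names of the blood columns hold the letters BM, taken here to stand for blood monocyte, since blood is the source in the titles of those samples.

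Of the 9 macrophage genes, 7 rose from LLC blood to LLC tumor, 1 fell (Adgre1) and 1 was not called (Cd163). Calls were made at an adjusted p under 0.05 in an edgeR quasi-likelihood fit of all 9 libraries, adjusted by Benjamini-Hochberg over the 12337 genes tested. Of all genes tested, 29.6% were called higher and 31.7% lower in this comparison. The median log2 fold change of the 9 was 2.55, and that of all genes tested was -0.03. For 8 of the 9, all but Cd163, the CPM values of the tumor and LLC blood libraries did not overlap, as was so for 68.3% of all genes tested. Against healthy blood, tumor libraries gave 7 members higher, 1 lower (Adgre1) and 1 not called (Cd163), with a median of 1.85 beside 0.00 for all genes; 33.5% of all genes were called higher and 33.0% lower. Here, too, 8 members had CPM values that did not overlap, as did 70.6% of all genes. Both comparisons use the same tumor libraries, so the second is not a repeat of the first. In bulk libraries, fewer cells of a type and less RNA per cell cannot be told apart, here and below. Between LLC blood and healthy blood no member was called higher, 3 were called lower (Mrc1, Axl, Maf) and 6 were not called, with a median of -0.70 beside -0.01, and 14.0% of all genes were called higher and 9.61% lower. CPM values did not overlap for 5 members (Adgre1, Ms4a7, Mrc1, Maf, Axl) and for 51.4% of all genes. Even without adjustment, at p under 0.05, 0 members were higher there, and DESeq2 and limma-voom called 0 higher.

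**Figure D1:**
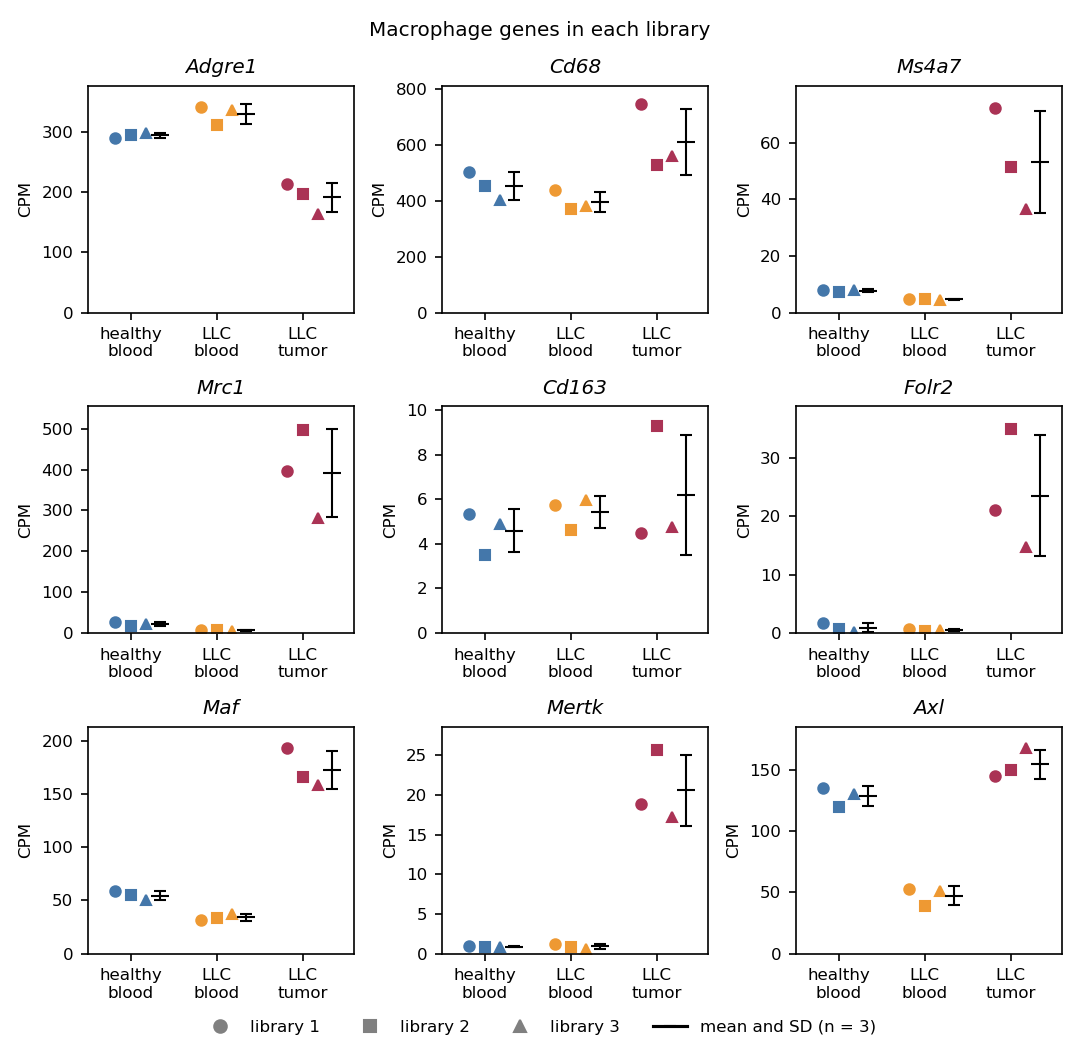
CPM (linear axis from 0, own scale per gene) of the 9 macrophage genes in the 3 groups; each symbol is a library, and the black mark is the mean with SD (n = 3). Tumor libraries lie above all blood libraries for Cd68, Ms4a7, Mrc1, Folr2, Maf, Mertk and Axl, below all of them for Adgre1 (163.9 to 212.4 CPM). For Cd163, LLC tumor 2 lies above the blood libraries and the other tumor libraries lie among them.

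Adgre1 encodes F4/80, the adhesion receptor by which mouse macrophages are usually recognised. It was at 289.8, 293.9 and 297.8 CPM in healthy blood, 340.0, 310.0 and 336.2 CPM in LLC blood and 212.4, 195.9 and 163.9 CPM in LLC tumor. The 3 groups do not overlap, and the tumor libraries are the lowest. From LLC blood to tumor Adgre1 fell by 0.57 ± 0.15 (SE) on the log2 scale, 1.48-fold (adjusted p = 0.00728), and it was lower in 3 of 3 tumor libraries than in any blood library. Against healthy blood it fell by 0.43 ± 0.15, 1.35-fold (adjusted p = 0.0245). That call was lost without healthy blood 3 (-0.44, adjusted p = 0.0574), LLC tumor 2 (-0.38, 0.0744) or LLC tumor 3 (-0.30, 0.0824). The difference between LLC blood and healthy blood was not called (0.14, adjusted p = 0.537).

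Cd68 encodes a heavily glycosylated protein of lysosomes and late endosomes that is abundant in macrophages. Its levels were 501.4, 451.3 and 402.0 CPM in healthy blood, 436.7, 369.5 and 381.5 CPM in LLC blood and 744.2, 525.5 and 558.6 CPM in LLC tumor. All tumor libraries are above all blood libraries, LLC tumor 1 is well above the other tumor libraries, and the blood groups overlap. The rise from LLC blood to tumor was 0.85 ± 0.20 on the log2 scale, 1.81-fold (adjusted p = 0.00493). Against healthy blood it was 0.64 ± 0.20, 1.55-fold (adjusted p = 0.0191), and this call was lost without healthy blood 2 (0.60, adjusted p = 0.0621) or healthy blood 3 (0.55, 0.0765). When single libraries were left out, the rise ranged from 0.58 to 1.01 against LLC blood and from 0.31 to 0.79 against healthy blood. LLC blood and healthy blood differed by -0.22 (adjusted p = 0.476).

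Ms4a7, a member of the MS4A family of proteins that cross the membrane several times, marks macrophages derived from blood monocytes in several tissues. It was at 8.0, 7.25 and 7.97 CPM in healthy blood, 4.69, 4.84 and 4.35 CPM in LLC blood and 72.0, 51.2 and 36.4 CPM in LLC tumor. No groups overlap, and the lowest tumor library is several times the highest blood library. It rose by 3.76 ± 0.30 on the log2 scale from LLC blood to tumor, 13.6-fold (adjusted p = 6.59e-06), and by 2.99 ± 0.29 against healthy blood, 7.95-fold (adjusted p = 1.65e-05). Between the blood groups its log2 fold change of -0.77 ± 0.30 was not called (adjusted p = 0.0979). It was called there in 6 of 19 alternatives, among them without LLC tumor 1 (-0.83, adjusted p = 0.00249), without LLC tumor 3 (-0.77, 0.0362) and with DESeq2 (-0.78, 0.0468).

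Mrc1 encodes CD206, the mannose receptor, which takes up glycoproteins and collagen fragments and marks many resident-type and tumor macrophages. It was at 26.4, 16.7 and 22.5 CPM in healthy blood, 8.42, 6.29 and 6.13 CPM in LLC blood and 395.6, 496.3 and 282.0 CPM in LLC tumor. All LLC blood libraries are below all healthy blood libraries, and all tumor libraries are far above both. The rise from LLC blood to tumor, 6.04 ± 0.29 on the log2 scale or 65.8-fold (adjusted p = 3.68e-07), was the largest among the 9 genes. Against healthy blood it was 4.34 ± 0.26, 20.2-fold (adjusted p = 8.96e-07). Mrc1 fell in LLC blood relative to healthy blood by 1.70 ± 0.26 on the log2 scale, 3.25-fold (adjusted p = 0.00230). The healthy blood mean of 21.9 ± 4.90 CPM lay between the 6.95 ± 1.27 CPM of LLC blood and the 391.3 ± 107.2 CPM of tumor.

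Cd163 encodes the scavenger receptor for hemoglobin bound to haptoglobin, a common marker of resident-type macrophages. It was at 5.36, 3.50 and 4.90 CPM in healthy blood, 5.74, 4.63 and 5.99 CPM in LLC blood and 4.51, 9.31 and 4.75 CPM in LLC tumor. The groups overlap in every comparison, and only LLC tumor 2 is above all blood libraries. The log2 fold change was 0.36 ± 0.28 from LLC blood to tumor (adjusted p = 0.292) and 0.58 ± 0.28 against healthy blood (adjusted p = 0.0941). The second was called without LLC tumor 3 (0.76, adjusted p = 0.0494). A p above the threshold does not show that the levels were alike, and the range over the alternatives run was 0.03 to 0.54 for the first and 0.25 to 0.76 for the second.

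Folr2 encodes folate receptor beta, found on macrophages around vessels and in tumors. Blood libraries were close to the floor: 24, 12 and 3 counts in healthy blood (1.72, 0.737 and 0.184 CPM) and 7, 4 and 11 counts in LLC blood (0.669, 0.277 and 0.531 CPM). The tumor libraries had 21.04, 34.9 and 14.8 CPM. Folr2 passed the filter only through these libraries, so its count among the members that rose says little by itself. All tumor libraries are far above all blood libraries, and the blood groups overlap. The rise from LLC blood was 5.77 ± 0.62 on the log2 scale, 54.5-fold (adjusted p = 3.92e-05), with the widest SE among the 9 genes. Against healthy blood it was 4.93 ± 0.57, 30.6-fold (adjusted p = 5.72e-05), and it was 5.80 without healthy blood 1, the library with most of the healthy blood counts. The blood groups differed by -0.83 ± 0.72 (adjusted p = 0.444), a difference that changed sign to 0.05 without that library.

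Maf encodes c-MAF, a basic leucine zipper transcription factor of resident-type macrophages. It was at 59.1, 54.7 and 50.3 CPM in healthy blood, 31.7, 33.1 and 37.7 CPM in LLC blood and 193.4, 166.9 and 158.6 CPM in LLC tumor. The 3 groups do not overlap, with LLC blood lowest and tumor highest. Maf rose by 2.55 ± 0.16 on the log2 scale from LLC blood to tumor, 5.87-fold (adjusted p = 1.54e-06), and by 1.85 ± 0.16 against healthy blood, 3.61-fold (adjusted p = 7.34e-06). In LLC blood it fell by 0.70 ± 0.16 relative to healthy blood, 1.62-fold (adjusted p = 0.0114). This call was lost without LLC blood 2 (-0.67, adjusted p = 0.0502).

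Mertk encodes MerTK, a receptor tyrosine kinase through which macrophages bind and engulf apoptotic cells. The counts in blood were few, 13, 13 and 14 in healthy blood (0.929, 0.799 and 0.858 CPM) and 13, 12 and 13 in LLC blood (1.24, 0.830 and 0.628 CPM). In the tumor it was at 18.9, 25.7 and 17.3 CPM. All tumor libraries are far above the blood libraries, and the blood groups overlap. The rise was 4.76 ± 0.26 on the log2 scale against LLC blood, 27.1-fold (adjusted p = 7.23e-07), and 4.74 ± 0.26 against healthy blood, 26.7-fold (adjusted p = 6.30e-07). The blood groups differed by -0.02 ± 0.29 (adjusted p = 0.970).

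Axl encodes the related receptor AXL, known in macrophages and dendritic cells and also in fibroblasts and tumor cells. It was at 135.4, 119.7 and 130.6 CPM in healthy blood, 52.4, 38.5 and 51.0 CPM in LLC blood and 145.1, 150.4 and 168.2 CPM in LLC tumor. The 3 groups do not overlap, LLC blood is lowest, and the tumor libraries are just above healthy blood. Axl fell in LLC blood relative to healthy blood by 1.47 ± 0.13 on the log2 scale, 2.77-fold (adjusted p = 0.000143). From LLC blood to tumor it rose by 1.91 ± 0.13, 3.76-fold (adjusted p = 2.60e-06), while the rise from healthy blood to tumor was 0.44 ± 0.13, 1.36-fold (adjusted p = 0.0116). The last call was lost without healthy blood 2 (0.36, adjusted p = 0.0688) and when libraries were scaled by their totals alone (0.27, adjusted p = 0.0652). Summed fibroblast markers were 940.8, 3484 and 3949 CPM in the tumor libraries, in which Axl was at 145.1, 150.4 and 168.2 CPM. With the TMM factors of the tests (0.798 in LLC tumor 1, 0.9996 in LLC tumor 2 and 0.968 in LLC tumor 3), Axl was highest in LLC tumor 1. The part of cells with fibroblast markers in the rise of Axl was not tested. In LLC blood 1, where those markers summed to 433.8 CPM, Axl was at 52.4 CPM. It was at 38.5 CPM in LLC blood 2 and 51.0 CPM in LLC blood 3, where they summed to 3.74 and 4.59 CPM.

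**Figure D2:**
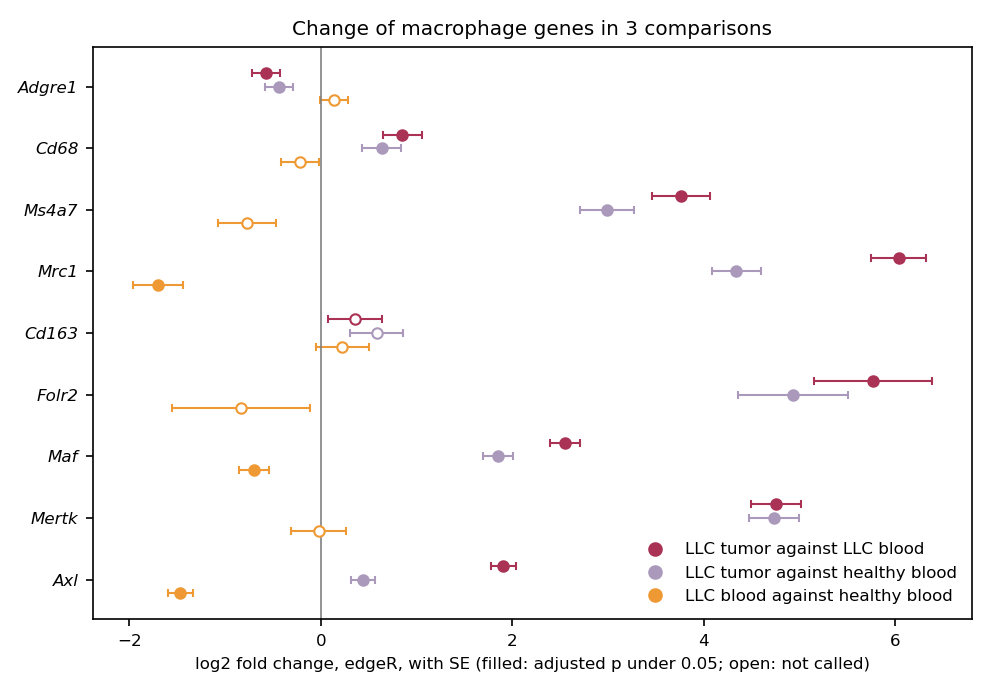
Log2 fold change with SE (edgeR, horizontal axis) of the 9 genes in LLC tumor against LLC blood, LLC tumor against healthy blood and LLC blood against healthy blood; filled points passed the adjusted p threshold and open points did not. Mrc1 (6.04), Folr2 (5.77) and Mertk (4.76) lie farthest to the right in tumor against LLC blood, Adgre1 (-0.57) lies left of 0, and Mrc1, Axl and Maf are the filled points left of 0 in LLC blood against healthy blood.

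The 9 genes did not share a single pattern. The order of the group means was tumor, healthy blood, LLC blood for Cd68, Ms4a7, Mrc1, Folr2, Maf and Axl. The blood means of Cd68, Ms4a7 and Folr2 were not called different, however, and the Folr2 and Cd68 blood libraries overlap. For Mertk the means of LLC blood and healthy blood, 0.900 ± 0.314 and 0.862 ± 0.0653 CPM, did not differ beyond their spread. The 3 members called lower in LLC blood rose from there to the tumor, but both comparisons use the LLC blood libraries, so no relation between the changes is read from this.

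The tumor libraries ranked differently for different members. By CPM, LLC tumor 1 was the highest for Adgre1, Cd68, Ms4a7 and Maf. LLC tumor 2 was the highest for Mrc1, Cd163, Folr2 and Mertk, and LLC tumor 3 for Axl. The tests scale libraries by TMM factors, which were 0.798 for LLC tumor 1, 0.9996 for LLC tumor 2 and 0.968 for LLC tumor 3. On that scale LLC tumor 1 was the highest for Axl, and the highest library of the other members was the same. The CPM ratio of the highest to the lowest tumor library was 1.16 for Axl, 1.22 for Maf and 1.30 for Adgre1. It reached 1.98 for Ms4a7, 2.06 for Cd163 and 2.36 for Folr2. Without LLC tumor 1, the library that stood apart, the tumor comparisons again gave 7 members higher and 1 lower each, and LLC blood against healthy blood gave 4 lower. Without healthy blood 2, tumor against healthy blood gave 5 higher and 1 lower. Without LLC blood 1, the counts were as with all libraries in each of the 3 comparisons.

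Likeness between patterns was measured as the root mean square difference of log2(CPM + 0.5), centred on each gene, over the 9 libraries. It is not scaled to the size of a change, so genes that change little lie close together whatever their direction. Among the members the most alike pairs were Cd68 and Cd163 (0.45), Folr2 and Mertk (0.51) and Ms4a7 and Maf (0.52), and the least alike were Adgre1 and Mrc1 (2.75). Among the other genes tested whose mean reached 20 CPM, the nearest to Adgre1 were Elmo1 (0.07) and F13a1 (0.08), and the nearest to Cd68 were Ftl1 (0.04) and Ctsb (0.09). The nearest to Ms4a7 were Atf3 (0.21) and Hmox1 (0.21), to Mrc1 Tnfrsf9 (0.25) and Ets2 (0.36), and to Folr2 Fosb (0.37) and Fmnl2 (0.46). Irf2bp2 (0.13) and Cd164 (0.19) were nearest to Maf, Lrp12 (0.24) was among the nearest to Mertk, and Mllt6 (0.22) and Marcksl1 (0.28) were nearest to Axl. For Cd163, whose groups overlap, Mms19 (0.23) and Rptor (0.23) were nearest. F13a1, which encodes a coagulation factor subunit made by classical monocytes, had means of 1522 CPM in healthy blood, 1735 CPM in LLC blood and 931.4 CPM in tumor, the order in which Adgre1 had 293.8, 328.8 and 190.8 CPM. These are descriptions over 9 libraries that fall into 3 groups, with no test.

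The wider macrophage genes were counted in lists made by known role, with earlier results of these data known. Each count is to be read beside the share of all genes tested. From LLC blood to tumor 29.6% of these were called higher and 31.7% lower, and from healthy blood to tumor 33.5% and 33.0%. Of 23 other core macrophage genes, 18 rose from LLC blood to tumor, 2 fell and 3 were not called, with a median log2 fold change of 1.39. Cd63, a tetraspanin of lysosomes and exosomes, rose from 1.5 ± 0.234 to 121.7 ± 33.7 CPM (log2 fold change 6.54). Abca1, the exporter of cholesterol to apolipoprotein A1, rose from 8.83 ± 1.20 to 465.1 ± 52.6 CPM (5.94), and Cd14, the co-receptor for bacterial lipopolysaccharide, from 49.4 ± 2.26 to 1611 ± 347.2 CPM (5.26). The 2 that fell were Arsg and Cd302, and the 3 not called were Myo7a, Lamp2 and Csf1r, the receptor for the growth factor of the lineage (1940 ± 179.7 CPM in LLC blood, 1336 ± 231.6 CPM in tumor, log2 fold change -0.31, adjusted p = 0.189). These 5 are named for the count and not by the rule of size. Against healthy blood 20 of 23 rose and 1 fell, or 2 without LLC tumor 1 (median 1.37). From healthy blood to LLC blood the lipopolysaccharide receptor gene Tlr4 rose (28.8 ± 4.2 to 53.9 ± 6.73 CPM), as did the lysosomal protease gene Tpp1 (97.4 ± 1.52 to 125.9 ± 4.49 CPM).

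Of 25 other resident-type macrophage genes, 18 had enough counts to be tested. From LLC blood to tumor 16 of the 18 rose and 2 fell, with a median of 5.61, or 4.29 when the 5 genes at the floor in a group were set at their bound. Those 18 passed the filter partly through the group where they were high, so the count says little by itself. Pf4, a chemokine of platelets and of some resident macrophages, rose from 0.691 ± 0.268 to 100.1 ± 26.0 CPM (7.43). Stab1, the scavenger receptor stabilin-1, rose from 3.35 ± 0.907 to 392.5 ± 54.7 CPM (7.11), and C1qa, a chain of complement C1q, from 1.76 ± 0.331 to 191.2 ± 54.3 CPM (6.96). The 2 that fell, named for the count, were Selenop (542.9 ± 17.0 to 202.2 ± 15.02 CPM) and Clec10a, whose counts were shared with other genes (40.2 ± 3.73 to 11.4 ± 2.04 CPM). The 7 not tested were Timd4, Vsig4, Marco, Retnla, Cd209f, Cd209g and Cd5l, several of them markers of macrophages in the peritoneum, liver or spleen. Over the healthy blood libraries, Cd5l ranged from 0 to 4.24 CPM, Retnla from 0 to 3.56, Timd4 from 0 to 2.83 and Marco from 0 to 2.09 CPM. Vsig4, Cd209f and Cd209g were at 0.246 CPM or less there. The healthy blood libraries were thus uneven for some resident-type genes. Against healthy blood 14 rose, 2 fell and 2 were not called, with a median of 3.79 (3.64 with the gene at the floor at its bound).

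In LLC blood relative to healthy blood, 0 of these 18 resident-type genes were called higher. The number was also 0 without adjustment at p under 0.05, by DESeq2 and by limma-voom. Of the 18, 9 were called lower and 9 were not called, with a median of -1.85 (-1.12 with genes at the floor at their bound). Of all genes tested, 14.0% were called higher and 9.61% lower there. The 18 passed the filter partly through groups other than LLC blood, and 5 were at the floor in a group. These counts therefore say little by themselves. Without LLC blood 2 or without LLC blood 3, only 4 were called lower. Siglec1, the sialic acid receptor sialoadhesin, fell from 73.6 ± 3.08 to 40.9 ± 12.2 CPM (log2 fold change -0.88, adjusted p = 0.0382). Clec10a fell from 52.8 ± 1.53 to 40.2 ± 3.73 CPM (-0.42, adjusted p = 0.0110). Of the complement genes, C1qa fell from 7.42 ± 3.89 to 1.76 ± 0.331 CPM. Dendritic cell markers moved the same way, with sums of 49.1 to 60.5 CPM in LLC blood against 106.8 to 109.5 CPM in healthy blood, and T cell and NK cell markers summed to 28.6 to 47.5 CPM against 180.2 to 458.9 CPM. Their part in the lower levels of Mrc1, Axl, Maf and these genes was not tested.

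Of 14 genes of tumor and lipid-associated macrophages, 12 rose from LLC blood to tumor, 0 fell and 2 were not called (Trem2 and Lpl), with a median of 4.17. Without adjustment, at p under 0.05, 0 genes of the list were lower, as by DESeq2, and 1 was called lower by limma-voom and 1 without LLC tumor 1. Vegfa, the vascular growth factor gene, rose from 2.06 ± 2.37 to 1003 ± 164.7 CPM (9.36). Arg1, which encodes the arginine-degrading enzyme arginase 1, rose from 4.13 ± 2.22 to 1890 ± 634.8 CPM (9.15), and Mmp12, the macrophage elastase gene, from 1.5 ± 0.548 to 533.4 ± 66.2 CPM (8.72). Against healthy blood 12 rose and 1, Lpl, fell (2 fell without LLC tumor 1; median 4.34), and the matrix protein gene Spp1 rose from 12.4 ± 9.06 to 2140 ± 164.5 CPM (7.63). In LLC blood relative to healthy blood the lipid genes Lpl and Apoe fell, from 189.2 ± 48.5 to 19.4 ± 2.78 CPM and from 1026 ± 96.1 to 330.1 ± 28.3 CPM, and Tgfbi rose from 1505 ± 170.3 to 2676 ± 188.0 CPM. Vegfa, Apoe and Spp1 shared reads with other genes in 1 to 3 libraries.

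**Figure D3:**
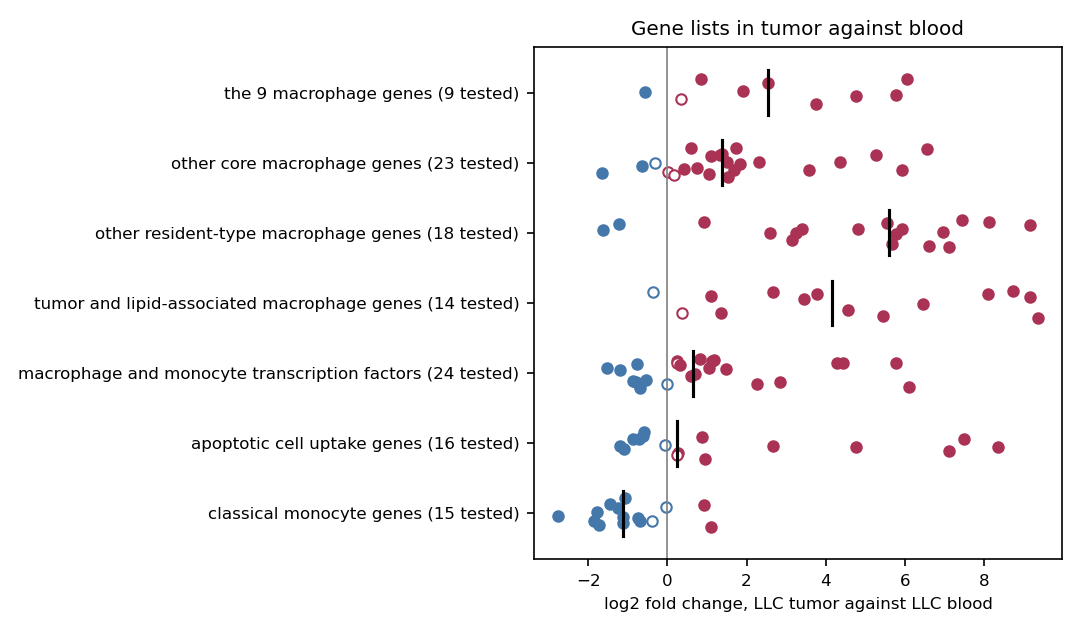
Log2 fold change in LLC tumor against LLC blood (horizontal axis) of each tested gene of the 9 members and of 6 gene lists; filled points passed the threshold, open points did not, red is above 0 and blue below 0, and the black bar is the median. The medians run from 5.61 for other resident-type macrophage genes to -1.12 for classical monocyte genes, with 2.55 for the 9 members.

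Of 24 tested transcription factor genes of monocytes and macrophages, 15 rose from LLC blood to tumor, 7 fell and 2 were not called (median 0.65). The shares of all genes tested were 29.6% higher and 31.7% lower. Among the largest rises were those of Egr2 (0.879 ± 0.324 to 39.4 ± 17.7 CPM, log2 fold change 5.78) and Bhlhe40 (41.0 ± 6.64 to 756.2 ± 159.8 CPM, 4.44). Spi1, which encodes PU.1, the master factor of the lineage, fell from 518.0 ± 11.8 to 309.4 ± 14.5 CPM (-0.53, adjusted p = 0.00194); it was named because its core motif was searched in the promoters. Against healthy blood 13 rose, 7 fell and 4 were not called (median 0.61). In LLC blood, Cebpa, which directs myeloid precursors, was lower than in healthy blood, falling from 248.5 ± 77.5 to 120.8 ± 7.23 CPM (-1.07, adjusted p = 0.0233), and Tfec and Ahr were higher.

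Mertk and Axl belong with TYRO3 to the TAM receptors, which bind phosphatidylserine on dying cells through the bridging ligands GAS6 and protein S. These 3 partners are named for that role. Gas6 was at 0.661 ± 0.667 CPM in healthy blood, 0.552 ± 0.406 CPM in LLC blood and 12.2 ± 4.32 CPM in tumor. The rise from LLC blood was 4.76 ± 0.70 on the log2 scale (adjusted p = 0.000278). In blood Gas6 was close to the floor, down to 0.145 CPM in LLC blood and 0.245 CPM in healthy blood. It passed the filter through the tumor libraries. Pros1, the gene of protein S, went the other way, from 116.4 ± 15.9 CPM in LLC blood to 48.4 ± 18.1 CPM in tumor (-1.10 ± 0.19, adjusted p = 0.000858), and was higher in LLC blood than in healthy blood (75.0 ± 6.38 CPM; 0.61 ± 0.19, adjusted p = 0.0453). Tyro3 did not pass the filter on low counts. It was at 0.303 ± 0.103 CPM in healthy blood and 0.0549 ± 0.0494 CPM in LLC blood. In tumor it was at 2.42 ± 2.09 CPM, with libraries from 0.181 to 4.32 CPM.

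Among 16 tested genes of apoptotic cell uptake outside the 9, 8 rose from LLC blood to tumor, 6 fell and 2 were not called (median 0.25). The shares of all genes tested were 29.6% higher and 31.7% lower. Thbs1, the gene of thrombospondin 1, rose from 158.1 ± 51.8 to 24423 ± 676.2 CPM (7.48), and Cd36, a scavenger receptor for lipids and thrombospondin, from 7.55 ± 1.53 to 40.5 ± 12.1 CPM (2.66). Cd36, which shared reads in 2 libraries, was at 42.7 ± 5.35 CPM in healthy blood, above LLC blood (-2.54, adjusted p = 0.000413), and tumor and healthy blood were not called different. Lrp1, the large endocytic receptor of the same pathway, rose from healthy blood to LLC blood, from 1229 ± 79.2 to 2996 ± 131.6 CPM (1.26, adjusted p = 0.000100), and was at 3115 ± 449.2 CPM in tumor. Itgb3, the integrin beta 3 gene, fell at that step from 29.9 ± 5.04 to 15.2 ± 2.31 CPM (-1.01, adjusted p = 0.00285). Against healthy blood 7 rose, 5 fell and 4 were not called in tumor (median 0.24), and 3 fell without healthy blood 1.

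Of 15 genes of classical monocytes, 11 fell from LLC blood to tumor, 2 rose and 2 were not called (median -1.12). Itga4, the integrin alpha 4 gene, fell from 1415 ± 148.0 to 182.3 ± 18.6 CPM (-2.76), with counts shared with other genes. Hp, the haptoglobin gene, fell from 1094 ± 21.6 to 265.1 ± 25.5 CPM (-1.85). The 2 that rose were Vcan and Fn1, genes of the matrix proteins versican and fibronectin. Ccr2 fell from 2169 ± 195.5 to 1119 ± 164.2 CPM (-0.73, adjusted p = 0.0121). Against healthy blood 12 fell, 2 rose and 1 was not called (median -1.37). Vcan, which shared reads in 5 libraries, was higher in LLC blood than in healthy blood, at 908.6 ± 256.3 and 173.3 ± 28.3 CPM (2.36, adjusted p = 0.000165).

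Between LLC blood and healthy blood the counts called in these lists changed when single libraries were left out. Leaving out a library of either blood group also lowered the genes called over the whole table, from 2917 to between 1494 and 2625. The part of the smaller number of libraries in the changes of the lists was not tested. Of all genes tested, 14.0% were called higher and 9.61% lower there. Among 23 core macrophage genes 3 were higher and 1 lower (median 0.03), and among 24 transcription factors 3 and 2 (median -0.22). Among 16 uptake genes 4 were higher and 3 lower (median -0.01). Among 15 classical monocyte genes 3 were higher and 2 lower (median 0.02), and among 14 tumor and lipid-associated genes 2 and 3 (median -0.37). Without LLC tumor 1, a library of neither group compared, the median of all genes tested was -0.06 instead of -0.01, and 4 core genes, 8 transcription factors, 7 uptake genes and 6 monocyte genes were lower and 4 tumor and lipid-associated genes higher. Without LLC blood 2 or 3, or without healthy blood 2, 2 uptake genes, 1 transcription factor and 1 tumor and lipid-associated gene were higher. Without healthy blood 3, 1 gene of each of the last 2 lists and 1 monocyte gene were higher, and without healthy blood 1, 2 uptake genes were. Lower calls among monocyte genes numbered 0 when healthy blood 1, healthy blood 3, LLC blood 2 or LLC blood 3 was left out, and 1 without healthy blood 2 or LLC blood 1. Of the transcription factors, 1 was lower without LLC blood 2, LLC blood 3 or healthy blood 1.

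Markers of other cell types were summed per library. Fibroblast markers were 940.8 to 3949 CPM in tumor and 6.14 to 16.9 CPM in healthy blood, all 8 of them were tested, and 4 rose from LLC blood and 7 from healthy blood. Markers of epithelial and LLC tumor cells were 1.47 to 2.43 CPM in healthy blood, 1.84 to 3.97 CPM in LLC blood and 81.3 to 180.0 CPM in tumor, with 5 of 5 tested higher in each tumor comparison. Both sums were lowest in LLC tumor 1, the tumor library in which Adgre1, Cd68, Ms4a7 and Maf were highest by CPM. Mrc1, Cd163, Folr2 and Mertk were highest by CPM in LLC tumor 2, and Axl in LLC tumor 3 (LLC tumor 1 with TMM factors). The sums of dendritic cell markers were lower in tumor, at 7.67 to 11.7 CPM, as were those of T cell and NK cell markers (2.08 to 5.002 CPM). So were the sums of Ly6C-low monocyte markers (739.3 to 976.6 CPM, against 1753 to 2393 CPM in LLC blood). Single markers were less uniform. From LLC blood to tumor, of 7 dendritic cell markers tested 3 fell, 1 rose and 3 were not called. Of 10 T cell and NK cell markers, 6 fell and 4 were not called. Of 8 Ly6C-low monocyte markers, 6 fell, 1 rose and 1 was not called. Summed neutrophil markers overlapped between groups, at 657.7 to 830.7 CPM in tumor and 733.7 to 890.1 CPM in LLC blood, but single markers differed: of 9 tested, 1 rose from LLC blood to tumor (Trem1, 19.4 ± 6.44 to 417.7 ± 119.2 CPM) and 4 fell (Csf3r, Mmp8, Camp and Ltf), all named for the count. Endothelial markers reached 22.9 CPM in tumor, mast cell and basophil markers 13.6 CPM, and eosinophil markers 2.14 CPM in any library, with Prg2 and Epx at 0 in all of them. The part of these cells in the rises of the 9 genes was not tested.

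**Figure D4:**
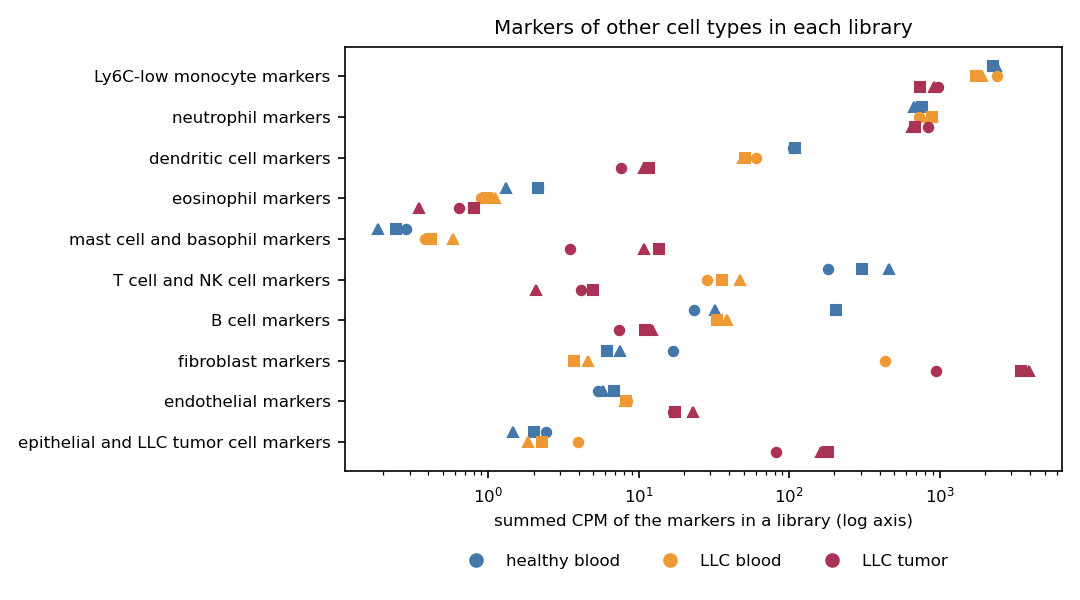
Summed CPM (log axis) of the markers of 10 other cell types in each of the 9 libraries; colors give the group, and circle, square and triangle are libraries 1, 2 and 3. Fibroblast and tumor cell markers are highest in the tumor libraries, fibroblast markers of LLC blood 1 (433.8 CPM) lie far from those of LLC blood 2 and 3, and dendritic, T and NK cell markers are lowest in the tumor libraries.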

How the data were processed

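RNA-seq libraries of sorted Ly6C-high mouse monocytes were analysed, 3 per group, and grouped by their titles. The authors deposited a table of expected counts, not normalized, in which 8.56% to 9.73% of the values per library were not whole, and a CPM table of 10693 genes scaled to library totals. In the latter, 100% of values came out as whole reads (tolerance 0.05 reads). Genome build mm10, STAR 2.6.1d, Salmon 1.9.0, cutadapt 3.4 and edgeR are named per the submitters' processing notes, without their roles. No row of the count table lacked a gene name.

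Counts were rounded. edgeR 4.0.16 (R 4.3.3) fitted all 9 libraries with group as the only term, TMM scaling, filterByExpr and the quasi-likelihood test, adjusted by Benjamini-Hochberg over 12337 genes within each of 3 comparisons; the fit was tested on simulated data. All adjusted p-values come from this fit unless another is named. CPM levels use library totals. Alternatives were DESeq2 1.42.0, limma-voom (limma 3.58.1), other scalings, filters, thresholds, sample sets, a replicate block and leaving out each library. The members and lists were chosen with earlier results of these data known. Beside the 9 members, the text names from each list at most 3 called genes with the largest absolute log2 fold change, from those averaging 20 CPM or more in the compared libraries, and for each member at most 2 genes nearest to it in pattern, and a few that these rules name are not reported here; other names are marked as chosen for their role, their count or the motif searched. Promoters came from RefSeq.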

Additional observations from a re-analysis of the deposited data

How the results depend on the processing

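Of the 513 log2 fold changes of members recomputed under 19 alternatives, 488 kept their call, 18 lost it, 7 gained one and 0 changed direction while called; where no reason is given, the cause was not tested. All members called in tumor against LLC blood kept the call, except Adgre1 and Cd68 when a log2 fold change of 1 or more in size was required, which left 0 members lower. That requirement also left 0 lower against healthy blood, as did an adjusted p under 0.01, and leaving out one library gave 0 to 1 there. By construction it lowered the genes called to 3538 (2131 higher, 1407 lower) in tumor against LLC blood, 3989 (2426, 1563) in tumor against healthy blood and 769 (400, 369) in LLC blood against healthy blood. For the last, an adjusted p under 0.01 gave 1386 (967, 419), limma-voom 5884 (3003, 2881) and the 6 libraries alone 4889 (2411 lower), against 2917 in the full fit. Leaving out one library gave 1494 (LLC blood 2) to 5064 (LLC tumor 1) genes there, 1019 to 2181 higher and 467 to 2883 lower. Scaling by totals moved the median of all genes to -0.23 in tumor against LLC blood and -0.17 against healthy blood, upper-quartile factors to -0.10 against healthy blood. The split of calls moved with it: 2859 higher and 5007 lower in tumor against LLC blood by totals (3652 and 3914 in the full fit), and 1490 and 1727 in LLC blood against healthy blood by upper-quartile factors (1732 and 1185).

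The deviations of same-numbered libraries from their group means correlated at -0.115 to 0.302, not over 0.1 in every pair of any 2 groups, and not every library correlated best with its own number, so the numbers are not taken as pairs. With a replicate block 7455, 8092 and 2788 genes were called in the 3 comparisons, and the counts of members were unchanged at 7 higher and 1 lower, 7 and 1, and 0 and 3. Depth limits Folr2 and Mertk in blood, with 3 to 24 counts per library.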

Other observations

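Relatives of the 9 genes by sequence family did not move with them as a group. Of 21 listed, 16 were tested, and from LLC blood to tumor 6 rose, 6 fell and 4 were not called, with a median log2 fold change of -0.06. The shares of all genes tested were 29.6% higher and 31.7% lower. The small MAF protein gene Maff rose from 1.09 ± 0.359 to 62.6 ± 24.7 CPM (6.16, adjusted p = 4.70e-06), beside Maf at 2.55. Adgre4, a relative of Adgre1 that is high in Ly6C-low monocytes, fell from 283.1 ± 42.5 to 52.4 ± 13.4 CPM (-2.21, adjusted p = 3.20e-05). Against healthy blood Ms4a4b, a relative of Ms4a7 known in T cells whose counts were shared with other genes in all 9 libraries, fell from 77.8 ± 37.3 to 7.81 ± 2.89 CPM (-3.12, adjusted p = 0.000120), while T cell and NK cell markers summed to 2.08 to 5.002 CPM in tumor, against 180.2 to 458.9 CPM in the blood of healthy mice. In the blood of tumor-bearing mice Ms4a8a, another relative of Ms4a7, fell from 83.6 ± 3.79 to 51.8 ± 6.18 CPM (-0.72, adjusted p = 0.0226).

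Lamp1, a lysosomal relative of Cd68 chosen for its role after its values were seen, was at 1208 ± 14.0 CPM in healthy blood, 1212 ± 5.76 CPM in LLC blood and 972.0 ± 44.6 CPM in tumor. Its log2 fold change from LLC blood to tumor of -0.11 ± 0.12 was not called (adjusted p = 0.460), beside 0.85 ± 0.20 for Cd68. The difference between these 2 genes was not tested.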
